A study of Mus musculus with 15 samples.

Results

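The 4 neo-liver arrays, out of 15 arrays in the series, were set against every other array: 4 of host kidney, 4 of host liver and 3 of control liver. A gene was called above when its lowest neo-liver value exceeded all 11 other arrays, and called below when its highest neo-liver value lay under all of them. It also had to pass limma's test, at a Benjamini-Hochberg adjusted p under 0.05, in the same direction against each of the 3 other tissues. Of 15594 genes tested, 74 (0.475%) lay above and 183 (1.17%) lay below. Every value is a log2 signal minus the 75th percentile of its array, so 0 is the 75th percentile and a step of 1 is a doubling.

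All mice were female FVB/N. The hosts were wild-type animals that entered at 7 to 9 weeks of age and received the liver toxin monocrotaline into the abdominal cavity, 70 mg/kg in 2 doses 2 weeks apart. After 2 further weeks, 1000000 hepatocytes from FVB/N donors of 8 to 20 weeks that carried a human α1-antitrypsin (hA1AT) transgene were placed beneath the capsule of the kidney. On days 250 to 300, at an age of 48 to 55 weeks, neo-liver (ectopic liver tissue cut out of the kidney under the microscope), host kidney and the injured host liver were taken, so all 3 host tissues share the toxin, the graft and the age. Control liver came from normal mice of 20 weeks, with no toxin or graft named in the labels, so that age, injury, site and donor cells differ together between neo-liver and control liver. The labels do not name the promoter that drives the transgene.

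Liver lobules hold hepatocytes, which make most plasma proteins, together with sinusoidal endothelium, Kupffer cells and stellate cells. Stellate cells and portal fibroblasts lay down fibrillar collagen and proteoglycans, most of all after injury. Neutrophils carry their antimicrobial proteins in granules that are filled during maturation in the bone marrow, so that messenger RNA of the primary and secondary granule proteins is richest in immature cells. A tissue piece made of liver and kidney alone would hold each messenger at a level between those of the 2 organs on a common scale, and levels outside that range are what the comparison asks for.

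The marker genes placed neo-liver between the organs. Alb, which encodes albumin, read 9.92 to 10.52 on the neo-liver arrays, 10.65 to 11.21 on the host liver arrays, 10.65 to 10.74 on the control liver arrays and -0.58 to 0.49 on the host kidney arrays. Umod, the uromodulin gene of the thick ascending limb, read 4.56 to 6.22 in neo-liver, 8.49 to 9.38 in host kidney and -6.36 to -3.23 in both kinds of liver. The Alb level in neo-liver differed by -0.79 ± 0.21 (SE) from host liver and -0.60 ± 0.22 from control liver (adjusted p = 0.00678 and 0.0387, limma). It was far above that of host kidney, and kidney messenger was present in every neo-liver sample. Over 63 kidney epithelium genes, the median level corresponded to 19.5%, 43.2%, 20.9% and 31.9% of host kidney in neo-liver arrays 1 to 4, against at most 0.0243% in host liver. Clec4f of Kupffer cells averaged 4.36 ± 0.71 (SD, n = 4) in neo-liver and 5.43 ± 0.49 (n = 4) in host liver. Stab2 of sinusoidal endothelium averaged 3.11 ± 0.33 and 4.63 ± 0.36. Both genes were far lower in host kidney, and neither left the range of the other tissues in neo-liver. In bulk tissue, fewer cells of a type and less messenger per cell cannot be told apart.

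Signal strength and slides bear on all comparisons. The 75th percentile of the processed signal was 416 to 676 intensity units on the neo-liver arrays, 561 to 874 in host kidney, 287 to 448 in host liver and 389 to 424 in control liver. Between 46.4% and 67.7% of probes were well above background on an array. Neo-liver and control liver arrays shared 1 slide, host kidney filled another, and host liver lay on 2 more. The contrast with control liver thus lay within a slide, whereas slide and tissue cannot be told apart in the contrasts with host kidney and host liver. No label states from how many mice the samples of a tissue came, or whether samples of the same number share a mouse. The p-values measure the spread between these samples.

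By the rule, genes called outside the range are a part of those called in each single contrast, so they are necessarily fewer. Against host kidney alone, neo-liver was called higher in limma for 3613 genes (23.2%) and lower for 4603 (29.5%). Against host liver the counts were 2669 (17.1%) and 4909 (31.5%), and against control liver 3180 (20.4%) and 4637 (29.7%). The same rule applied to the other tissues called 2864 genes (18.4%) above and 2614 (16.8%) below in host kidney, 497 (3.19%) and 360 (2.31%) in host liver, and 816 (5.23%) and 763 (4.89%) in control liver. By group means alone, 1009 genes (6.47%) had their highest level in neo-liver and 3401 (21.8%) their lowest. Without limma's test, 79 genes (0.507%) lay above and 283 (1.81%) below.

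The genes above and the genes below differed in how far they stood off. Among the 74 genes above, the gap between the lowest neo-liver array and the highest other array had a median of 0.32 and reached 5.38, and it was at least 1 for 9 genes and at least 2 for 4. By measured means, 49 of the 74 were at least 2-fold and 18 at least 4-fold over the nearest other tissue. Among the 183 genes below, the median gap was 0.09 and the largest 0.36, and 2 genes were at least 2-fold under the nearest tissue. The nearest single array was a host kidney for 35 of the genes above, a host liver for 33 and a control liver for 6. For the genes below it was a host kidney for 80, a host liver for 73 and a control liver for 30.

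**Figure D1:**
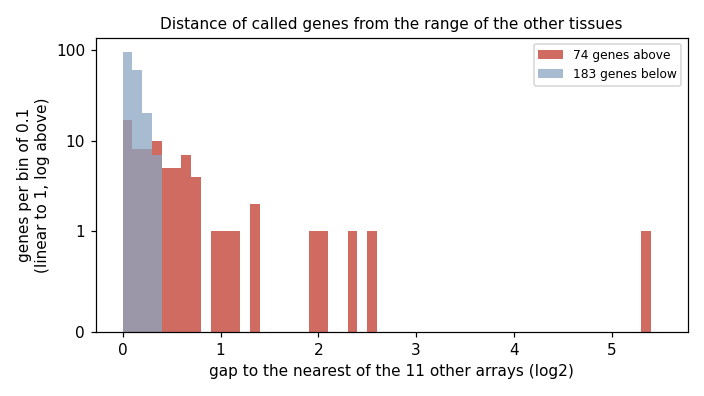
Distribution of the gap (log2, x axis, bins of 0.1) between neo-liver and the nearest of the 11 other arrays for the 74 genes above (red) and the 183 genes below (blue). The y axis, genes per bin, is linear up to 1 and logarithmic above it. All genes below sit within 0.36 of the other arrays, while the genes above extend to 5.38.

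The widest gap belonged to Pclo, which encodes piccolo, a scaffold protein of the presynaptic active zone. Its probe read 6.27, 5.83, 5.73 and 5.81 on neo-liver arrays 1 to 4, -0.57, -0.05, -0.58 and -0.62 in host kidney, -0.44, -0.39, -0.77 and -0.995 in host liver, and 0.23, 0.33 and 0.34 in control liver. All neo-liver arrays were far above, and the other 3 tissues lay close together. The difference was 5.61 ± 0.18 (SE) from control liver, the nearest tissue, with an adjusted p of 9.42e-11 in limma. This held for 1 of the 3 Pclo probes that passed the background filter. A second probe averaged -1.85 in neo-liver, -0.21 in host kidney, -6.16 in host liver and -6.27 in control liver, and the remaining probe was below background in neo-liver, so the probes disagree and the gene as a whole was not shown to be higher.

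Cib3, of the calcium and integrin binding protein family, read 2.80, 1.79, 2.27 and -0.80 in neo-liver. It was not well above background on any host kidney or control liver array and was so on 2 of 4 host liver arrays, whose 4 values ran from -5.56 to -3.36. Neo-liver array 4 was the lowest of its group and still stood 2.56 above the highest host liver. Cib3 was at least 156-fold higher than host kidney (adjusted p = 1.87e-07, limma) and at least 61.1-fold higher than control liver (1.51e-05), and differed by 5.53 ± 0.66 from host liver (2.32e-05). These bounds set the neo-liver mean against the dimmest signal that counted as above background.

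Macroh2a2 encodes the histone variant macroH2A2, which is enriched in compact chromatin. It read 4.998, 4.61, 4.62 and 4.63 in neo-liver, 1.97, 2.22, 1.87 and 2.09 in host kidney, 1.17, 1.17, 1.21 and 0.91 in host liver, and 1.42, 1.41 and 1.37 in control liver. Every group was tight and neo-liver stood alone at the top, by 2.67 ± 0.12 over host kidney (adjusted p = 3.4e-10, limma) and 3.60 ± 0.12 over host liver (7.94e-11). Mepe, a phosphoglycoprotein gene known from bone matrix, read 2.07, 1.65, 1.58 and 1.66 in neo-liver, -2.77 to -2.39 in host kidney, -3.21 to -1.90 in host liver and -0.62 to -0.44 in control liver. Here control liver was the nearest tissue, 2.28 ± 0.25 lower (adjusted p = 7.12e-06), and both host organs were lower still. Between arrays of the same number, Pclo exceeded host liver by 6.22 to 6.80, Macroh2a2 by 3.40 to 3.83 and Mepe by 3.56 to 4.86. The rule for calls fixes the sign of these differences, and only their size is read here.

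Il3, the gene of the cytokine interleukin 3 of activated T cells and mast cells, was dim: -2.28, -2.88, -3.34 and -3.20 in neo-liver, and -5.54 to -5.27 in host kidney. It was below background on all liver arrays, over which neo-liver was at least 2.09-fold (host liver) and at least 2.82-fold (control liver) higher, and it exceeded host kidney by 2.49 ± 0.26 (adjusted p = 3.37e-06, limma). The Il3 call was lost with normexp background correction. None of 3 T cell markers (Cd3d, Cd3e and Cd3g) and none of the 2 mast cell markers tested was called. The T cell markers summed to 1.57 to 2.40 in neo-liver, 0.93 to 1.19 in host kidney, 1.72 to 1.94 in host liver and 1.70 to 2.01 in control liver. The mast cell markers summed to -1.35 to -0.58, -0.95 to -0.52, -2.09 to -1.57 and -1.59 to -1.49 in the same order. The part of these cells in the Il3 level was not tested. Fkbp11, a peptidyl-prolyl isomerase of the endoplasmic reticulum that is abundant in secretory cells, read 0.79, 0.07, 0.72 and 0.33 in neo-liver and -2.80 to -1.27 on the 11 other arrays. The 3 other tissues overlapped for Fkbp11, and the nearest, host liver, was lower by 2.60 ± 0.29 (adjusted p = 1.32e-05). Plasma cells express Fkbp11 strongly. Their markers (Jchain, Mzb1, Derl3) summed to 1.16 to 3.75 in neo-liver, 2.75 to 4.52 in host kidney, 0.74 to 2.04 in host liver and -1.33 to -0.54 in control liver. The part of plasma cells in the Fkbp11 level was not tested.

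Col8a2, Dab1, Capn6 and Shc2 followed by gap. Col8a2, a short-chain collagen, read -3.34, -3.74, -3.92 and -3.76 in neo-liver, was well above background on 3 of 4 host kidney arrays (-7.24 to -5.04), and was below it on all liver arrays. It differed by 2.03 ± 0.42 from host kidney (adjusted p = 0.00126, limma) and was at least 1.22-fold higher than host liver. With no filter on dim probes a second Col8a2 probe, left out by that filter, was taken for the gene, and with it the gap was -1.74, an overlap, and the neo-liver mean was not the highest. Its call was also lost with normexp. Capn6, a calpain without protease activity, read -1.20, -1.63, -1.16 and -0.74 in neo-liver and -3.26 to -2.61 in host kidney, a difference of 1.80 ± 0.39 (adjusted p = 0.0016). Its means were lower in host liver (-3.98) and control liver (-4.32), though host liver array 2, at -3.07, lay within the host kidney range. Capn6 was well above background on 3 of 4 host liver arrays and on 1 of 3 control liver arrays. Dab1, the adaptor of reelin signalling, was 1.08 to 1.53 in neo-liver and -0.84 to 0.05 elsewhere, 1.40 ± 0.12 over host kidney (adjusted p = 5.02e-07). Only 1 of its 3 probes that passed the filter kept the groups apart, and the other 2 overlapped by 0.13 and 0.03. Shc2, an adaptor of receptor tyrosine kinases, read -0.08, -1.94, -0.06 and 0.26 in neo-liver and -3.87 to -2.71 elsewhere. Array 2 was its lowest neo-liver value, and both of its probes lay above all other arrays.

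Slpi, a secreted inhibitor of leukocyte proteases, stood out by its level. It read 4.81, 4.26, 6.54 and 5.76 in neo-liver, 1.79, 0.40, 2.69 and 2.13 in host kidney, 1.90, 1.47, 3.03 and 3.50 in host liver, and -0.78, -1.23 and -0.79 in control liver. Arrays 3 and 4 were higher than arrays 1 and 2 in each host tissue, and control livers were lowest. Neo-liver exceeded host liver by 2.87 ± 0.58 (adjusted p = 0.00132, limma). Between arrays of the same number the difference was 2.26 to 3.52, with its sign fixed by the rule for calls.

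**Figure D2:**
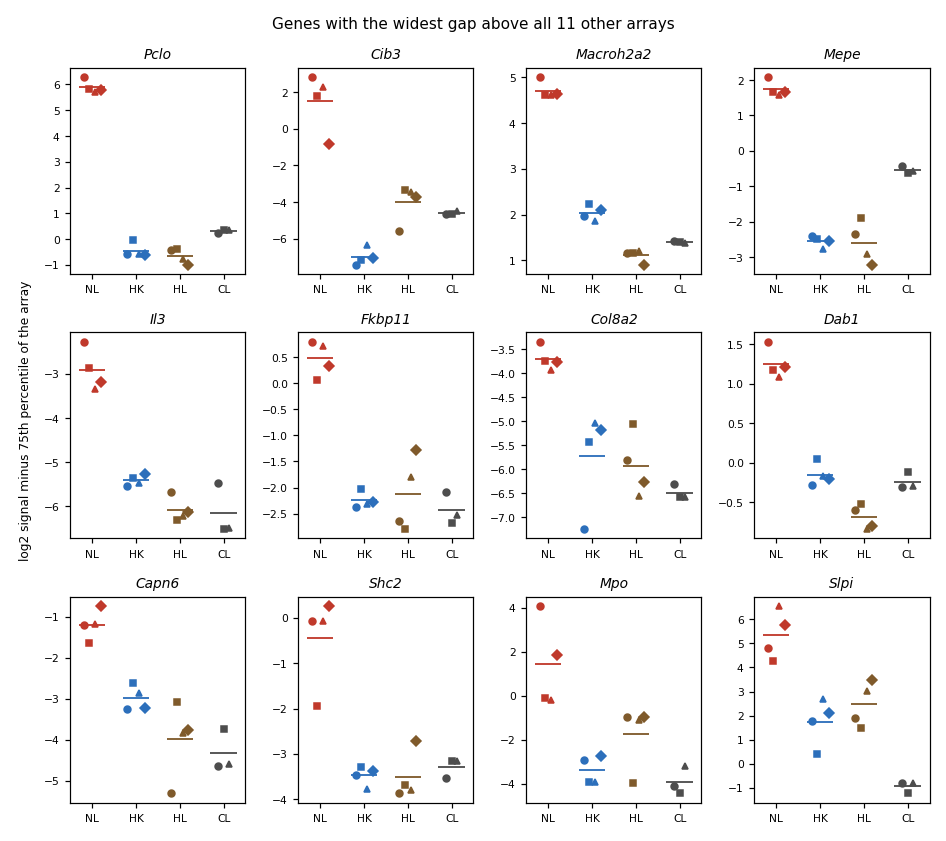
The 12 named genes with the widest gap above all other arrays, 1 panel each; the y axis is log2 signal minus the 75th percentile of the array, and points are arrays of neo-liver (NL), host kidney (HK), host liver (HL) and control liver (CL) with a line at each mean. Marker shape is the replicate number (circle 1, square 2, triangle 3, diamond 4). In every panel the 4 neo-liver points lie above the 11 others, with the gap falling from 5.38 for Pclo to 0.77 for Slpi.

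Collagens and other matrix proteins had the most called members above the range among the 50 gene lists. Of 14 collagen genes measured, 4 (28.6%) lay above all other arrays, against 0.475% of all genes, and none lay below. The 4 were Col1a1, Col1a2, Col5a2 and Col14a1. By means, 10 of the 14 were highest in neo-liver, against 6.47% of all genes. The median difference over the 14 was 1.19 from host kidney, 1.24 from host liver and 2.08 from control liver, where the medians over all genes were -0.09, -0.21 and -0.15. The collagen list, like the other lists here, was written with earlier results of these data known.

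Col1a1 and Col1a2 encode the chains of type I collagen, the main fibrillar collagen of scar. Col1a1 read 1.91, 1.58, 1.34 and 2.46 in neo-liver, -0.96, 0.17, -0.48 and 0.04 in host kidney, -1.67, 0.69, -0.47 and -0.71 in host liver, and -1.65, -1.50 and -1.82 in control liver. The injured livers spread widely, and the highest of them, array 2, still lay 0.65 below the lowest neo-liver. Neo-liver was higher by 2.13 ± 0.41 than host kidney (adjusted p = 0.000737, limma), 2.36 ± 0.41 than host liver (0.000482) and 3.47 ± 0.45 than control liver (3.25e-05). Col1a2 read 3.59, 3.10, 2.86 and 3.98 in neo-liver, 1.84 to 2.79 in host kidney, 1.32 to 2.42 in host liver and 0.70 to 1.15 in control liver. Its gap was small, 0.08 from a host kidney, and its difference from host kidney was 0.99 ± 0.28 (adjusted p = 0.00923). Quantile normalization and normexp background correction each ended the calls of Col1a2 and Col5a2, and median centring ended those of Col5a2 and Col14a1, so that 2 of the 14 collagens were called under each of these settings. Under normexp the Col5a2 mean no longer exceeded all others.

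Col5a2, a regulator of fibril diameter, was dim, at -4.39 to -3.53 in neo-liver. It was well above background on 3 host kidney arrays and on none of the livers. Against host liver Col5a2 has no bound: the neo-liver mean less the level that bounds are set against came to -0.04. Over control liver it was at least 1.32-fold higher. Col14a1, of the fibril-associated collagens, read 3.92, 3.32, 3.37 and 3.31 in neo-liver and 2.82 to 3.05 in host liver, a difference of 0.53 ± 0.15 (adjusted p = 0.0104, limma). The second Col14a1 probe overlapped with another array by 0.08. Col3a1, of reticular fibres, was not called: it read 2.59, 2.19, 1.52 and 2.94 in neo-liver and host liver array 2 reached 1.83. Col4a1 and Col4a2 of basement membrane differed from host kidney by -0.12 ± 0.28 and 0.18 ± 0.22 (adjusted p = 0.749 and 0.515, limma).

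The promoter of Col1a2 is shown because type I collagen is the group's lead member and its start holds the CCAAT box that is known to bind the factor NF-Y. The sequence comes from RefSeq (build GRCm38.p6, chr6:4505368-4505667, + strand) and runs 5′ to 3′ from 250 bases before the gene start to 50 after it. Capitals mark CCAAT on either strand, which reads ATTGG on the strand printed where the box faces the other way.
Col1a2: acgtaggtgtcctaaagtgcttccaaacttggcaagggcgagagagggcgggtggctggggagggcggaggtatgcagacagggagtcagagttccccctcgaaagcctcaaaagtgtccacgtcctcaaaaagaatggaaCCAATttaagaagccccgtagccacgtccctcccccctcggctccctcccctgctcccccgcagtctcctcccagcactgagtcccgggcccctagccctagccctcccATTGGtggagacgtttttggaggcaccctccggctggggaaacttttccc
CCAAT occurred 2 times, and the letters TATAAA did not occur. Searched on both strands, CCAAT was found in at least 1 promoter of this length for 41.1% of the 27025 mouse genes in the RefSeq table, and for 22 (40.7%) of the 54 genes above that had an entry. TATAAA was found for 15.7% of all these genes and for 6 (11.1%) of those 54. A match is a description of letters only. Col1a1 and Lum had no entry.

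Proteoglycans and glycoproteins of the matrix were the other such list. Of 31 measured, Lum, Fbln2, Thbs2 and Bgn lay above all other arrays (12.9%, against 0.475% of all genes, and none below), and 13 had their highest mean in neo-liver, against 6.47% of all genes. The medians of the list were 0.31 against host kidney, 1.01 against host liver and 1.58 against control liver. Lum encodes lumican, which spaces collagen fibrils. It read 3.67, 2.35, 3.42 and 3.70 in neo-liver, -1.08, 0.25, -0.52 and -0.20 in host kidney, 1.55, 1.53, 1.24 and 1.59 in host liver, and 0.71, 0.52 and 0.42 in control liver. Neo-liver array 2 was lowest of its group and stood clear of every other array, and the difference from host liver was 1.81 ± 0.30 (adjusted p = 0.000328, limma). Fbln2 (fibulin 2, of elastic fibres) differed from host liver by 1.31 ± 0.23 (adjusted p = 0.000481) with a gap of 0.45. Thbs2 (thrombospondin 2, which binds matrix proteases) differed from host kidney by 1.50 ± 0.32 (adjusted p = 0.00146). Bgn (biglycan) exceeded host liver by 0.45 ± 0.15 with a gap of 0.04 (adjusted p = 0.0205), and its call was lost with median centring, with 2-group fits, or without neo-liver array 3, neo-liver array 4 or host liver array 1.

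Several matrix genes did not leave the range. Dcn (decorin) read 5.99 to 6.99 in neo-liver and 6.22 to 6.60 in host liver. Postn (periostin) differed from host liver by 0.15 ± 0.52 and Sparc by 0.07 ± 0.15 (adjusted p = 0.828 and 0.721, limma). Thbs1 differed from host kidney by -1.58 ± 0.33 (adjusted p = 0.00118) and from host liver by 2.20 ± 0.33 (0.00014), so its neo-liver level lay between the organs.

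Of the lists for cells that make matrix, 1 of 20 myofibroblast genes, 1 of 15 matrix proteases and 2 of 22 stellate cell genes lay above the range, against 0.475% of all genes. The myofibroblast gene was Pdgfrb, the receptor for platelet-derived growth factor B on pericytes and fibroblasts, at 1.21 to 1.89 in neo-liver and 0.35 to 1.19 in host kidney, with a gap of 0.03 and a difference of 0.69 ± 0.17 (adjusted p = 0.00385, limma). Its call was lost with quantile normalization and with normexp. The protease was Adamts2, which trims the ends of procollagen, at 1.20 ± 0.29 over host liver (adjusted p = 0.0043). The stellate cell genes were Cygb, a globin of stellate cells, and Adamtsl2, a secreted glycoprotein that binds matrix microfibrils. Cygb read 4.50, 3.43, 3.97 and 4.04 in neo-liver, 1.97 to 2.68 in host kidney, 2.52 to 3.01 in host liver and 1.94 to 2.10 in control liver. Cygb was thus highest in all neo-livers, 1.18 ± 0.21 over host liver (adjusted p = 0.000523). Adamtsl2 exceeded the nearest tissue, host kidney, by 1.55 ± 0.21 (adjusted p = 3.62e-05).

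The defining stellate cell markers went the other way. The summed level of Lrat, Reln, Colec10 and Des was 1.83 to 2.71 in neo-liver, 3.43 to 3.86 in host liver, 3.64 to 3.92 in control liver and -2.32 to -1.41 in host kidney. No marker of the 4 was called, and the neo-liver range sat below both livers and above kidney without overlap.

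Some further genes known from fibroblasts were chosen after their values were seen. Smoc2, a matricellular protein, read 2.57 to 3.25 in neo-liver and 1.32 to 2.39 in host kidney, 1.19 ± 0.33 higher (adjusted p = 0.00766, limma). Islr, a marker of mesenchymal cells, exceeded host kidney by 1.14 ± 0.33 (adjusted p = 0.0105) and Cpxm1, a carboxypeptidase-like matrix protein, by 1.15 ± 0.33 (0.00923). The homeobox gene Prrx2 and the helix-loop-helix gene Twist2, both active in mesenchyme, were dim, at -3.56 to -2.76 and -4.10 to -2.62 in neo-liver. Each was above background on 3 of 4 host kidney arrays and on no liver array, with differences from host kidney of 1.17 ± 0.27 (adjusted p = 0.00252) and 1.87 ± 0.51 (0.00697). Itgbl1 and Cpxm2 had gaps of 0.28 and 0.32. The calls of Prrx2, Twist2 and Itgbl1 were lost with normexp, and that of Cpxm2 without neo-liver array 1 or 4 or without host kidney array 1 or 3.

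**Figure D3:**
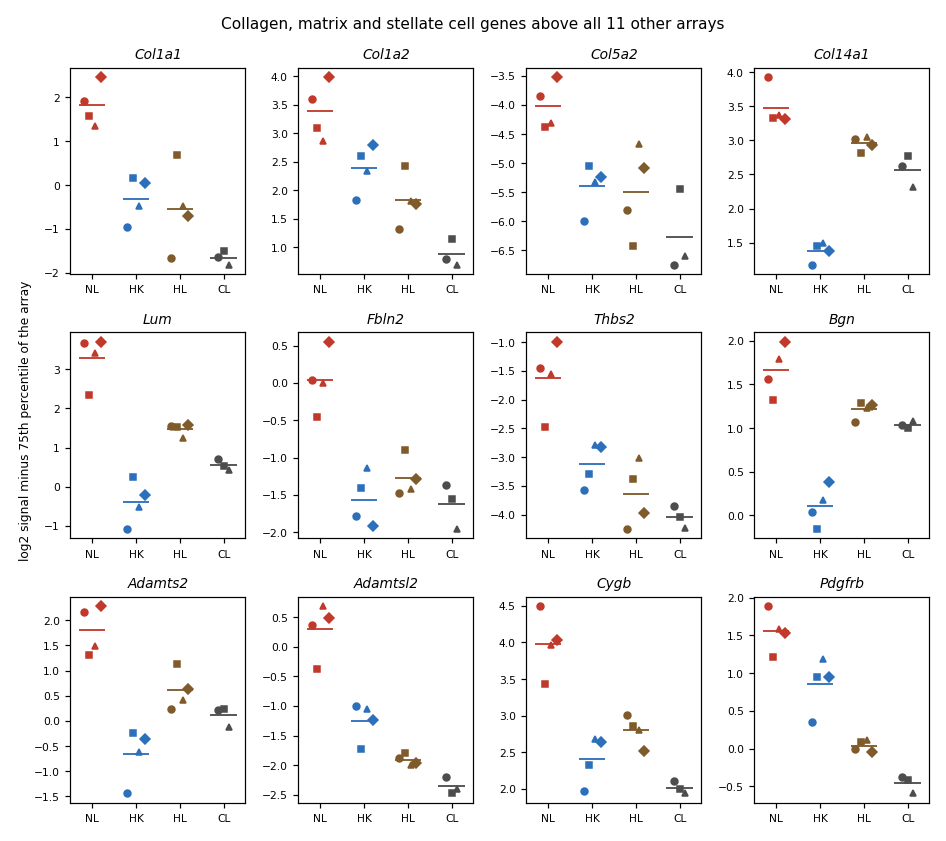
Collagen, matrix and stellate cell genes above all 11 other arrays, 1 panel each; the y axis is log2 signal minus the 75th percentile of the array, points are arrays (marker shape is the replicate number, square for 2) and lines are group means. Neo-liver array 2 is the lowest neo-liver point in panels such as Lum (2.35) and Cygb (3.43), and the gap to the other arrays runs from 0.76 for Lum to 0.03 for Pdgfrb.

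The neo-liver arrays differed in level over the called genes, and their counts are given here for the genes above beside the kidney share. Array 2, with a share of 43.2%, was the lowest neo-liver array for 43 of the 74 genes and the highest for 0. Array 4 (31.9%) was the lowest for 6 and the highest for 25, array 3 (20.9%) the lowest for 22 and the highest for 8, and array 1 (19.5%) the lowest for 3 and the highest for 41. Over the 183 genes below, arrays 1 to 4 were the lowest for 100, 20, 37 and 26 and the highest for 23, 89, 43 and 28. Without array 2, 138 genes lay above, 71 of the 74 among them. The part of kidney tissue in the level of each gene was not tested. In the series as measured, kidney was the nearest tissue for Col1a2, Thbs2, Pdgfrb, Smoc2 and Islr, and host liver for Col14a1, Lum, Bgn and Adamts2.

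Neutrophil granule genes also lay above the range. Of 12 measured genes of the neutrophil list, Mpo, Camp and Ngp (25%, against 0.475% of all genes) lay above all other arrays, none lay below, and 8 had their highest mean in neo-liver, against 6.47% of all genes. The medians of the list were 4.27 against host kidney, 1.00 against host liver and 3.92 against control liver. Mpo encodes myeloperoxidase of primary granules, Camp the cathelicidin precursor and Ngp a protein of secondary granules. Ctsg (cathepsin G of primary granules), Cebpe (the factor C/EBPε that drives secondary granule genes) and Chil3 (a chitinase-like protein of myeloid cells) were added after their values were seen.

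Mpo read 4.06, -0.08, -0.18 and 1.87 in neo-liver, -2.91, -3.90, -3.93 and -2.71 in host kidney, -0.95, -3.97, -1.08 and -0.95 in host liver, and -4.10, -4.43 and -3.19 in control liver. Camp read 5.44, 1.53, 1.95 and 2.83 in neo-liver, -3.22 to -2.58 in host kidney, 0.92, -0.95, 0.07 and 0.03 in host liver, and -1.04 to -0.88 in control liver. Ngp read 3.67, -0.52, -0.02 and 1.03 in neo-liver and -0.72, -4.42, -2.50 and -2.01 in host liver. The neo-livers spread by over 3 on the log2 scale in each of these genes, with array 1 highest and array 4 next, and host liver array 2 was the lowest of its group. The differences from host liver, the nearest tissue, were 3.15 ± 0.88 for Mpo (adjusted p = 0.0102, limma), 2.92 ± 0.65 for Camp (0.00269) and 3.45 ± 0.87 for Ngp (0.00568). Ngp was not above background on any host kidney array, over which neo-liver was at least 112-fold higher (adjusted p = 9.74e-06).

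For all of these genes neo-liver exceeded the host liver of the same number, as the rule for calls requires, so only the sizes are read here. For Mpo the differences were 5.01, 3.88, 0.90 and 2.82 for numbers 1 to 4. For Camp they were 4.52, 2.48, 1.88 and 2.81, and for Ngp 4.39, 3.90, 2.48 and 3.04. Number 1 had the largest difference and number 3 the smallest in all of them. Both Camp probes lay above all other arrays, with gaps of 0.61 and 0.65.

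Ctsg read 2.51, -1.45, -1.34 and 0.72 in neo-liver and -2.64 to -1.65 in host liver, 2.20 ± 0.66 higher (adjusted p = 0.0148, limma). Cebpe read 0.91, -2.93, -2.39 and -1.100 in neo-liver and -6.09 to -3.32 in host liver, 2.74 ± 0.79 higher (adjusted p = 0.0122), with 2 of 4 host liver arrays above background. Chil3 read 4.16, 0.60, 1.103 and 2.38 in neo-liver and -2.19 to 0.25 in host liver, 2.58 ± 0.67 higher (adjusted p = 0.00691). All 3 had array 1 highest and array 4 next. The calls of Ctsg and Cebpe were lost with normexp, and that of Ctsg also with 2-group fits.

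Other neutrophil genes of the list overlapped. S100a8, a calprotectin subunit, read 6.72, 2.32, 3.56 and 4.50 in neo-liver and 4.87, 0.71, 2.45 and 3.26 in host liver, a difference of 1.45 ± 1.04 (adjusted p = 0.264, limma). S100a9, its partner, differed by 1.21 ± 1.00 (adjusted p = 0.333) and Lcn2, which sequesters iron carriers of bacteria, by -0.24 ± 0.79 (0.818). Host liver array 1 overlapped with the neo-livers for each. Ltf (lactoferrin) overlapped by 0.18 only, at 3.86, -0.32, 0.20 and 1.58 in neo-liver against -0.14 in host liver array 1. The Elane probe, for neutrophil elastase, read 1.85 to 3.02 in neo-liver and 2.89 to 4.02 in host kidney, and Prtn3 (proteinase 3) overlapped widely, with host liver array 1 at 2.18. The erythroid markers, a sign of blood or marrow cells, summed to 6.12 to 8.25 in neo-liver, 7.15 to 9.18 in host kidney, 7.44 to 9.47 in host liver and 5.83 to 6.51 in control liver, and neither of the 2 tested was called. The part of blood in the granule genes was not tested.

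**Figure D4:**
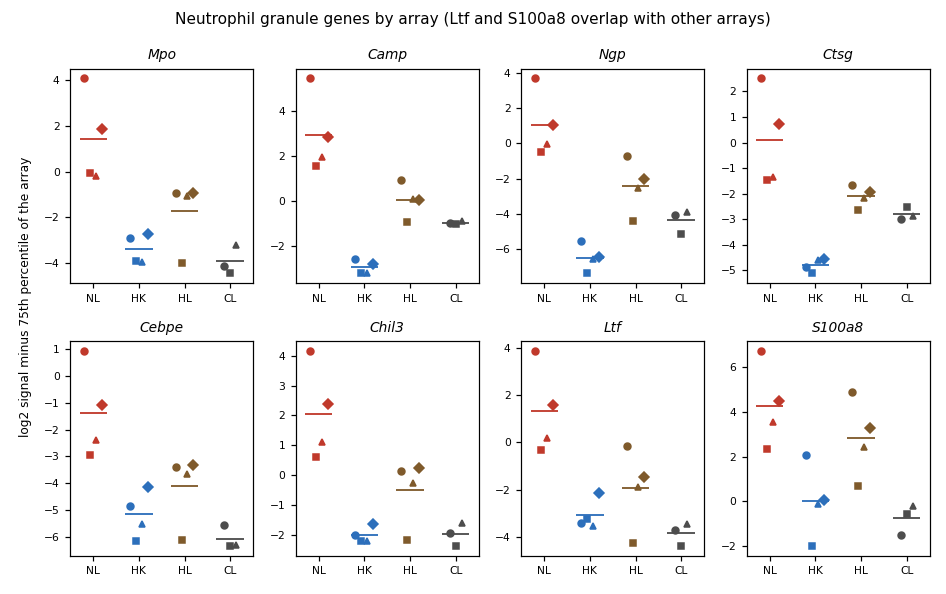
Granule genes by array, 1 panel each; the y axis is log2 signal minus the 75th percentile of the array, points are arrays (marker shape is the replicate number: circle 1, square 2, triangle 3, diamond 4) and lines are group means. Neo-liver array 1 is the highest point in the 6 panels of called genes, and S100a8 overlaps between neo-liver (2.32 to 6.72) and host liver (0.71 to 4.87).

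The promoters of the 3 granule genes are shown because Cebpe, a member of the C/EBP family, lay above the range beside them. They come from RefSeq (build GRCm38.p6): Mpo at chr11:87793534-87793833 (+ strand), Camp at chr9:109849407-109849706 (- strand) and Ngp at chr9:110419558-110419857 (+ strand), each 5′ to 3′ on the strand of the gene. Capitals mark TTNNGNAA, a loose form of the C/EBP site in which N is any base, on either strand.
Mpo: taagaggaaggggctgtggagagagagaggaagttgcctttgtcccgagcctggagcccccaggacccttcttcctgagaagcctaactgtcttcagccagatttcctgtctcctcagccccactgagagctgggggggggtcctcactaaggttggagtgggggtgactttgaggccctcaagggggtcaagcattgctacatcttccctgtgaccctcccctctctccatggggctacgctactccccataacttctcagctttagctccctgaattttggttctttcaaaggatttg
Camp: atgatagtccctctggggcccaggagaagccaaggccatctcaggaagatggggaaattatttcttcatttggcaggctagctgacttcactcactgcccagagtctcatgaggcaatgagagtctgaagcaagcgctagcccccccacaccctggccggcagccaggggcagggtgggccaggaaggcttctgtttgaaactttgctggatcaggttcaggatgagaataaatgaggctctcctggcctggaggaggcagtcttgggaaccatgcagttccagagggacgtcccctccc
Ngp: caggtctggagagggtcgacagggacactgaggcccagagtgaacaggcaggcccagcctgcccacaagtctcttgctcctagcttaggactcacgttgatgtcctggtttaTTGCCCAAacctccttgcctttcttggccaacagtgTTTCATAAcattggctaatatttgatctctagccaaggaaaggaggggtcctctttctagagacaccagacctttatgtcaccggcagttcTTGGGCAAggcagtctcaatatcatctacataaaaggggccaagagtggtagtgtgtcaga
Ngp held 3 matches, and these letters were not in the windows of Mpo and Camp. The motif was found in at least 1 promoter for 44.1% of the 27025 genes in the table, for 20 (37.0%) of the 54 genes above with an entry and for 54 (34.6%) of 156 such genes below.

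Few other cell types had a member above the range. Lyve1, the hyaluronan receptor of lymphatic and sinusoidal endothelium, was the only called gene of 18 sinusoidal and of 8 lymphatic endothelial genes, where 0.475% of all genes lay above. The median difference over the sinusoidal genes was 3.44 from host kidney, -0.82 from host liver and -0.70 from control liver. Only 1 of the 18 had its highest mean in neo-liver. Over the lymphatic genes the medians were 0.76, 0.50 and 0.92 in the same order. Lyve1 read 0.23, -0.52, 0.17 and -0.67 in neo-liver, -1.83, -2.14, -0.69 and -2.36 in host liver, and -2.47 to -2.02 in control liver, with 1 of 4 host kidney arrays above background. Host liver array 3 came within 0.02 of the lowest neo-liver, and the call was lost with quantile normalization, median centring and normexp. Gdf6, a growth factor of the bone morphogenetic protein family, and Gpr174, a lysophosphatidylserine receptor of lymphocytes, were well above background on the 4 neo-liver arrays and on none of the 11 others. Both are named for that and not for their gap. Gdf6 was at least 1.13-fold higher than host liver and at least 3.89-fold higher than host kidney, and Gpr174 was at least 1.23-fold higher than control liver and at least 3.14-fold higher than host kidney. Against host liver, its nearest tissue, Gpr174 has no bound: the neo-liver mean less the level that bounds are set against came to -0.13. With normexp background correction the groups of both genes overlapped and neither mean stayed above all others. The Gpr174 call was also lost with quantile normalization, with median centring, without any 1 of the 4 neo-liver arrays, without host liver array 1, 2 or 4, and without control liver array 1 or 3.

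Of the 50 gene lists, 34 lists with 643 measured genes had no called member. The lists were picked for having no call, so that 0 of the 643 passed the rule by construction. With no test 0 of them lay outside the range, a count that this choice also lowers. Of all genes, 0.507% lay above and 1.81% below with no test. The count at an unadjusted p under 0.05 is a part of the count with no test, and so was 0 too. The 34 lists took in Kupffer cells, T and NK cells, B and plasma cells, recruited macrophages, proliferation, bile duct, mesothelium, adipocytes, plasma proteins and the kidney epithelia. By means, 10 of 22 T and NK cell genes, 9 of 20 recruited macrophage genes and 5 of 12 mesothelial genes were highest in neo-liver, against 6.47% of all genes. Mki67, of cycling cells, read -0.75 to 1.23 in neo-liver and -0.18 to 1.89 in host liver. Krt19, of bile duct and collecting duct, read -2.83 to -1.93 in neo-liver and -3.03 to -1.27 on the other arrays. Afp, of fetal hepatocytes, read -3.14 to -1.51 in neo-liver and -4.05 to -1.98 in host liver. All 3 overlapped between tissues.

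Genes below the range stood close to it, and their number moved with how the arrays were scaled. The scaled host kidney and host liver arrays of each number were added at the kidney share of the neo-liver with that number. The 75th percentile of the sum lay 0.14 to 0.20 (log2) above that of its parts. With neo-liver arrays shifted up by this amount, 120 genes lay above and 23 lay below. By its construction such a shift raises every neo-liver value, so it widens each gap above and narrows each gap below. Quantile normalization left 72 above and 99 below, and median centring gave 66 and 285. Genes above made up 28.8% of all calls, 42.1% with quantile normalization, 18.8% with median centring and 83.9% with the scaling of the weighted sum. The median difference over all genes from host liver was -0.21, and -0.05 under that scaling. Most calls below were thus made under some scalings only, and below means lower relative to the 75th percentile of the array.

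**Figure D5:**
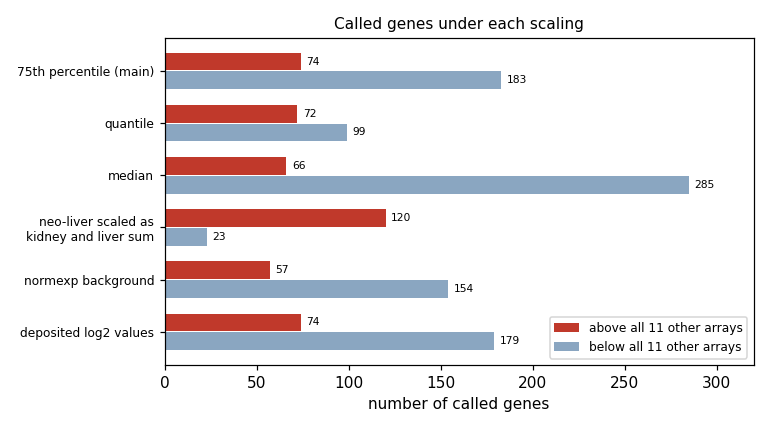
Number of genes (x axis) called above (red) and below (blue) all 11 other arrays under 6 ways of scaling or correcting the arrays. The count above runs from 57 to 120 and the count below from 23 to 285.

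The mitochondrial respiratory chain had more called members below than any other list. Of 38 subunits of the respiratory chain and ATP synthase, 10 (26.3%) lay under all other arrays, against 1.17% of all genes, none lay above, and all 38 had their lowest mean in neo-liver, against 21.8% of all genes. The 10 belonged to complex I (Ndufb8, Ndufv1, Ndufb9, Ndufa9, Ndufa1), II (Sdhc), III (Uqcrc2), IV (Cox4i1, Cox7b) and the synthase (Atp5c1). The medians of the list were -0.51 from host kidney, -0.50 from host liver and -0.78 from control liver. With quantile normalization 0 of 38 were called and 18 had their lowest mean in neo-liver, against 18.2% of all genes. With the scaling of the weighted sum 0 were called and 35 had it, against 10.2%. Median centring called 14 of the 38, where 285 of all 15594 genes lay below, and normexp called 9, where 154 did. All 38 had their lowest mean in neo-liver under both.

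Uqcrc2, a core subunit of complex III, read 5.81, 6.23, 5.91 and 5.92 in neo-liver, 6.59, 6.70, 6.50 and 6.38 in host kidney, 6.55, 6.74, 6.50 and 6.39 in host liver, and 6.71, 6.65 and 6.57 in control liver. The other 3 tissues lay together and neo-liver 0.15 beneath them, with array 2 closest. Neo-liver was lower by 0.57 to 0.68, with SE of at most 0.12 and adjusted p of at most 0.00117 in limma. Cox4i1, a subunit of cytochrome oxidase, read 6.98, 7.39, 7.09 and 7.15 in neo-liver and 7.53 to 8.05 elsewhere. Ndufb8, an accessory subunit of complex I, differed by -0.98 ± 0.12 from host kidney and -0.57 ± 0.12 from host liver (adjusted p = 2.21e-05 and 0.00219). Ndufv1, which carries the flavin of complex I, differed by -0.62 ± 0.15 from host liver (0.00369). With quantile normalization the groups of Cox4i1 overlapped (gap -0.33) and its neo-liver mean was no longer the lowest. The Ndufv1 call was also lost with normexp.

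In other lists single genes lay below the range. Gldc, the decarboxylase of the glycine cleavage system, read 4.23, 4.36, 4.45 and 4.39 in neo-liver, 5.48, 4.79, 5.03 and 5.05 in host kidney, 5.17, 5.32, 5.47 and 4.96 in host liver, and 5.27, 5.39 and 5.47 in control liver. Liver and kidney stood at a like level and neo-liver was under both, by -0.73 ± 0.14 from host kidney (adjusted p = 0.000866, limma) and -0.87 ± 0.14 from host liver (0.000325). Mtr, the vitamin B12-dependent methionine synthase, read -1.98, -1.65, -2.02 and -1.84 in neo-liver, -0.64 to -0.01 in host kidney, -0.82 to -0.62 in host liver and -1.34 to -1.25 in control liver. For Mtr control liver was nearest, 0.58 above neo-liver (adjusted p = 0.00381). Gldc was 1 of 50 genes of amino acid catabolism called, a share near the 1.17% of all genes below, and Acadm, the medium-chain acyl-CoA dehydrogenase, was 1 of 26 of fatty acid oxidation. The Acadm call was lost with normexp, with quantile normalization, with the scaling of the weighted sum, without neo-liver array 1 and without control liver array 1.

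Ghr, the growth hormone receptor, read 4.95, 4.73, 4.24 and 4.58 in neo-liver, 5.20 to 5.56 in host kidney, 5.38 to 6.21 in host liver and 5.92 to 6.13 in control liver. It differed by -0.77 ± 0.18 from host kidney, the nearest tissue, and -1.27 ± 0.18 from host liver (adjusted p = 0.00295 and 0.000104, limma). Only 1 of the 2 Ghr probes that passed the filter lay below all other arrays. Ghr was the only called gene of 21 in its list, against 1.17% of all genes, and the call was lost with quantile normalization. Ugt3a2, a glycosyltransferase of liver and kidney, read 5.16 to 5.66 in neo-liver and 5.98 to 6.64 elsewhere, a call also lost with quantile normalization. Ccl25, a chemokine that attracts lymphocytes, read 0.05, -0.17, -0.33 and -0.10 in neo-liver and 0.40 to 1.23 elsewhere, and its call was lost with the mean of its probes. Of the 25 chemokines, 9 had their highest mean in neo-liver, against 6.47% of all genes. Cldn5, the claudin of endothelial tight junctions, differed by -0.75 ± 0.21 from host kidney and -1.50 ± 0.21 from host liver (adjusted p = 0.00952 and 0.000102), the only called gene of 20 general endothelial genes, against 1.17% of all genes. Its call was lost with median centring and with the scaling of the weighted sum. Mdm2, the ubiquitin ligase of p53, read 2.92 to 3.13 in neo-liver and 3.31 to 3.41 in control liver, its nearest tissue. The Mdm2 call was lost with normexp, with quantile normalization, with the scaling of the weighted sum, and without control liver array 1 or 3.

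The remaining genes with the widest gap below were Hps6 (lysosome-related organelle biogenesis, 0.36), Plekhb1 (a pleckstrin homology protein, 0.33), Traf5 (a signalling adaptor of tumour necrosis factor receptors, 0.30), Ephb6 (an ephrin receptor without kinase activity, 0.28), Pigt (attachment of lipid anchors to proteins, 0.27), Mindy3 (a deubiquitinase, 0.27), Ppp2r3d (a phosphatase subunit, 0.26) and Zdhhc5 (a palmitoyltransferase, 0.26). Traf5 read -0.01, -0.05, 0.04 and 0.15 in neo-liver and 0.45 to 0.89 elsewhere, -0.51 ± 0.11 from control liver (adjusted p = 0.00146, limma). Ppp2r3d was tight in neo-liver, at -1.83 to -1.81, against -1.54 to -0.94 elsewhere, and the mean of its 2 probes overlapped by 0.69. Its call was also lost with normexp, with the scaling of the weighted sum, and without host kidney array 1 or control liver array 1. The Ephb6 call was lost without any 1 of the 4 neo-liver or 3 control liver arrays, without host liver array 1, 2 or 3, with the slide as a random block, with the mean of its probes, and with normexp, quantile normalization or the scaling of the weighted sum. The scaling of the weighted sum also ended the calls of Hps6 and Pigt, quantile normalization those of Plekhb1 and Zdhhc5, the mean of probes that of Zdhhc5, and leaving out control liver array 3 that of Pigt. Only 1 of the 2 Plekhb1 probes that passed the filter lay below all other arrays.

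Agreement among probes and settings differed between the directions. Of 11 genes above with more than 1 kept probe, 3 had every probe above the range, and of 61 such genes below, 11 had every probe below it. For Atxn7l2, Iqcd and Rxrg, chosen after their values were seen, a second probe overlapped with other arrays by 1.80 to 3.40. Over 26 alternatives that kept the rule for calls, 32 of the 74 genes above and 9 of the 183 below were called in every one. The 9, named here for that, were Gldc, Mtr, Traf5, Mindy3, Dusp28, Frg2f1, Cep43, Cct6b and Cdyl. Of the 74 genes above, 50 were well above background on all 15 arrays, as were 178 of the 183 below.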

How the data were processed

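Each of the 15 tissue samples was hybridised to its own 1-colour Agilent array with Cy3. Per the file headers, intensity values were written by Agilent Feature Extraction 10.10.1.1, a version the submitters' processing notes also give. The processed signal had its background subtracted and was detrended within an array, and was not scaled between arrays, per the file headers. The deposited log2 values of the series table equalled the log2 of that signal less a constant of the array, to within 0.01, for 100% of probes, the constant being close to the log2 of the 75th percentile. The software behind that step is not known here. All 15 columns of the table were matched to samples.

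Here, 3671 control spots and 1924 outlier spot values were left out, and 59305 spots were averaged into 55681 probes, of which 26582 had a symbol through a RefSeq accession. Probes stayed in when every array of at least 1 tissue was well above background by the scanner's call, and 88 with missing values were dropped, leaving 20340 named probes. Each gene took its probe with the highest mean, giving 15594 genes, 3986 of them with more than 1 kept probe. No spot was saturated, and no pseudocount was added. An array has no read depth, so the number of arrays limits the precision. For a tissue below background on all of its arrays, a fold is given as "at least", against the higher of the probe's own signal and the dimmest signal above background on each array.

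A single limma model with a mean for each tissue was fitted to all arrays (limma 3.58.1 with statmod 1.5.0 in R 4.3.3; tables were read with data.table, version 1.17.8), using limma's moderated two-sided test and Benjamini-Hochberg adjustment over all genes of a contrast. The procedure was tested on simulated data. Named genes are the 12 with the widest gap in each direction without predicted gene models, up to 4 called members of each list in each direction, and 9 lead genes. The members and lists were chosen with earlier results of these data known. For the kidney share, 63 kidney epithelium genes were taken whose signal in host kidney was at least 8 times that in control liver. The share is the median over them of a sample's linear signal, less that of control liver, relative to the same quantity in host kidney. Same-numbered samples of the 3 host tissues deviated together (r across genes 0.18 to 0.58, with the best correlation at the own number in 12 of 12 cases), so in an alternative the numbers were taken as mice. Normexp correction used median spot and background signals with an offset of 50. Alternatives covered the background, scaling, filter, probe choice, blocks, call rule and each array left out. Promoters were matched to RefSeq's entries by symbol.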

Additional observations from a re-analysis of the deposited data

Results flagged for a closer look

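In each tissue with 4 arrays, the gap of the highest or lowest array to its neighbour was divided by the range of the 4 values, and a share above 0.829 marks an array that stands apart. Chance alone marks about 1 in 20 groups. Over 67 genes and 201 groups, 18 were marked: 7 in neo-liver, 9 in host liver and 2 in host kidney.

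Neo-liver array 1 stood apart as the highest for Macroh2a2 (4.998, next 4.63, share 0.949), Col14a1 (3.92, next 3.37, share 0.912), Mepe (2.07, next 1.66, share 0.845) and Alb (10.52, next 10.01, share 0.843). Neo-liver array 2 stood apart as the lowest for Krt19 (-2.83, next -2.01, share 0.92) and Shc2 (-1.94, next -0.08, share 0.847). Neo-liver array 3 was lowest for Hps6 (0.89, next 0.98, share 0.925), a step of little size.

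Host liver array 2 stood apart as lowest for Mpo (-3.97, next -1.08, share 0.956) and Cebpe (-6.09, next -3.65, share 0.883) and as highest for Smoc2 (1.61, next 0.41, share 0.829). Host liver array 3 did so for Acadm (8.02, next 7.44, share 0.913), Lum (1.24, next 1.53, share 0.845) and Mindy3 (1.73, next 1.99, share 0.831). Host liver array 4 did so for Macroh2a2 (0.91, next 1.17, share 0.848) and Shc2 (-2.71, next -3.70, share 0.846), and array 1 for Cib3 (-5.56, next -3.70, share 0.844). In host kidney, array 2 stood apart for Pclo (-0.05, next -0.57, share 0.91) and array 3 for Afp (-4.47, next -3.45, share 0.837).

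Probes without a gene symbol entered none of the comparisons above. Of 14564 such probes, 58 (0.398%) lay above all 11 other arrays and 88 (0.604%) below them by the same rule.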

How the results depend on the processing

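Counts below the range depended on scaling. With the 75th percentile of each array, 74 genes lay above and 183 below. Below the range, quantile normalization gave 99, median centring 285, the scaling of neo-liver as a weighted sum of kidney and liver 23, and absence of overlap with no test 283. A required gap of 1 left 0 below, by limma's calls, and 9 above, and the weighted-sum scaling gave 120 above. Leaving out 1 array at a time gave 69 to 138 above and 147 to 306 below. Both highest counts came without neo-liver array 2, and included 71 of the 74 and 160 of the 183. The replicate block, with the number taken as mouse, gave 77 and 214 and lost no named gene. The slide as a random block gave 72 and 170, 2-group fits 71 and 123, no filter on dim probes 77 and 170, the strict filter 51 and 192, the mean of probes 77 and 185, the deposited log2 values 74 and 179, and normexp 57 and 154.

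Among single genes, a gap below 0 is the overlap with the nearest array, and for the genes given next the neo-liver mean also no longer lay beyond the means of all 3 other tissues. With normexp the gaps became -0.47 for Col5a2, -0.60 for Gdf6 and -0.42 for Gpr174. Quantile normalization gave -0.33 for Cox4i1, no filter gave -1.74 for Col8a2 through another probe, and the mean of probes gave -0.69 for Ppp2r3d. The cause was not tested. Of 59 named called genes, 15 lost the call with normexp, 15 with quantile normalization and 11 with the weighted-sum scaling while their neo-liver mean still lay outside the means of the 3 other tissues.

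Limits: 4 arrays a tissue (3 of control liver) set the precision. Host kidney and host liver lay on slides of their own. Signals near background, as for Il3, Col8a2, Gdf6, Prrx2 and Twist2, give bounds against the livers, and Gpr174 and Col5a2 have none against host liver. Most genes rest on 1 probe, and a probe's gene comes from its accession. Levels are relative to an array's 75th percentile, so that a change in total messenger would not be seen.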
